A study of Mus musculus with 12 samples.

Results

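The heat shock proteins and DNAJ cochaperones were taken as the genes of the count table named as Dnaja, Dnajb or Dnajc with a number, as HSP70, HSP110, HSP60, HSP10, HSP90 or small heat shock protein genes (Hspa, Hsph, Hspd, Hspe, Hsp90, Hspb), or as Hsf1, Hsf2, Bag3 or Stip1. Of 23420 genes, 74 carried such a symbol, and the 65 with a summed count of at least 100 over the 4 mRNA libraries are described here. They are 24 DNAJC, 9 DNAJB and 4 DNAJA genes, 13 HSP70 and HSP110 genes, 3 HSP90 genes, 6 small heat shock protein genes, Hspd1 and Hspe1, the 2 heat shock factors, Bag3 and Stip1. Of the 9 genes left out, 6 were listed at 0 (Dnajb3, Dnajb7, Dnajb8, Dnajb13, Hspb3 and Hspb9), and Dnajc22, Hspa12a and Dnajc6 had 43, 34 and 9 reads in all. The member with the lowest sum was Hspb2, with 184. Families were assigned by symbol alone, which places Hspb11 among the small heat shock protein genes. The symbols and the count minimum chose the genes, but this rule was set with earlier results of these data known.

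Heat shock proteins are molecular chaperones that bind unfolded stretches of other proteins. HSP70 proteins cycle between ATP-bound and ADP-bound states; DNAJ proteins, named for their J domain, deliver clients and stimulate ATP hydrolysis, and HSP110 and BAG proteins exchange the nucleotide. HSP90 proteins finish the folding of kinases and steroid receptors, the estrogen receptor among them, and STIP1 hands clients from HSP70 to HSP90. HSF1 is the transcription factor that induces many of these genes under stress, through heat shock elements made of inverted GAA units. BMAL1, with its partner CLOCK, binds E-boxes and drives the circadian clock, and PER2 represses it.

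Mouse embryonic fibroblasts (129/sv background) gave the 12 libraries of the series. In every group the cells were per1 -/-, per2 -/-, nr1d1 -/- and nr1d2 -/- and carried the transgene PER2-ER, PER2 fused to what the labels call ER. They received 1 µM 4-hydroxytamoxifen (4-OHT), a ligand of the estrogen receptor, or its solvent, 0.1% ethanol (EtOH), for 4 h, and each treatment has 2 mRNA, 2 BMAL1 ChIP and 2 input libraries. The comparison, 4-OHT against EtOH, asks what PER2 induction does to BMAL1 binding and transcription. The labels give neither the promoter of the transgene nor the number of clones, and transgene-free cells were not analysed here, so an effect of 4-OHT itself cannot be told apart from one of PER2-ER. The labels do not say whether the replicates are separate cultures; p-values therefore cover the spread among these libraries alone, and it may be technical.

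The mRNA libraries held 60267540 to 89695667 counted reads, and the ChIP and input libraries 12481308 to 33454366 reads. Of the 10 fibroblast markers, Thy1 and Lum were listed at 0 in every library and the others summed to 27661.9 to 30619.0 CPM (counts scaled to library size). Among those others, Pdgfra was at only 11.034 to 13.335 CPM. The 4 epithelial markers summed to 12.4 to 16.9 CPM, mostly Cdh1, and the 3 muscle markers to 24.5 to 30.6 CPM, mostly Acta1, with Myod1 at 0. Neuronal markers summed to 7.9 to 10.2 CPM, blood markers to 3.0 to 3.3 CPM and endothelial markers to at most 0.1 CPM. Reads of the deleted genes appeared in each mRNA library, Per2 at 546.0 to 614.1 CPM and Per1 at 36.5 to 45.7 CPM. Nr1d1 was at 48.9 and 55.6 CPM with EtOH and 16.5 and 17.7 with 4-OHT, and Nr1d2 at 82.9, 91.9, 39.7 and 35.6 CPM. Counts ran over whole genes, so they do not check the deletions or separate the transgene from Per2.

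BMAL1 occupancy was measured at 4740 regions that the authors called in EtOH-treated cells, and 20 of these lay within 1 kb of the start of a member. They belonged to 19 of the 65 members (29.2%), against 2800 of 12420 genes with the same count minimum and a single start (22.5%). A region was found at all 3 HSP90 genes, both heat shock factors, Hspd1 and Hspe1, 4 of 13 HSP70 and HSP110 genes, 1 of 4 DNAJA, 3 of 9 DNAJB and 4 of 24 DNAJC genes. The 6 small heat shock protein genes, Bag3 and Stip1 had none. Members with a region had a median mRNA level of 67.9 RPKM (reads scaled to exon length in kb and to library size, as in CPM) and the other members 17.7. In all genes of the count minimum these medians were 19.5 and 10.8. A region was present at 8 of the 10 members with the highest RPKM and at 1 of the 10 with the lowest.

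The promoter letters show which starts carry an E-box and which a heat shock element. RefSeq (GRCm38.p6) promoter windows, 250 bases before to 50 after the start, matched 50 of the 65 members and 13 of the 19 with a region. The E-box CACGTG was present in 5 of these 13 (38.5%) and in 1 of the other 37 (2.70%, Dnajc1), against 7.15% of all 32851 promoters. Over all genes of the count minimum, it was present in 30.3% of promoters of genes with a region and in 4.40% of those without. Heat shock elements were searched as a pair, GAANNTTC or TTCNNGAA, and as a triple of the same units, GAANNTTCNNGAA or TTCNNGAANNTTC, which contains pairs; letters were read on both strands. A pair was present in 14 of 50 member promoters (28.0%, against 15.1% of all promoters). Over all genes of the count minimum, it was present in 9.32% of promoters with a region and in 12.1% of those without. A triple was present in 4 of 50 member promoters, against 0.603% of all. The 4 were Hspd1, Hspe1, Hsph1 and Dnajb6. The pairs and triples of Hspd1 and Hspe1 are the same letters, counted for each gene, since the genes run apart from starts 216 bp from each other.

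Printed here are the 5 promoters with both a region and an E-box (Hsph1, Hsf2, Dnajc16, Dnajb9 and Dnajc8). The start shared by Hspd1 and Hspe1, which held the region with the most reads, is also printed. So is Hspa1a, an inducible HSP70 gene with a heat shock element pair and no region. Each printed promoter runs 5′ to 3′ on the strand of its gene, from 170 bases before the start to 30 after it. Capitals mark E-box and heat shock element letters. They were chosen after the matches were seen and describe letters, not sites in use.
Hspd1, chr1:55087903-55088102 (- strand): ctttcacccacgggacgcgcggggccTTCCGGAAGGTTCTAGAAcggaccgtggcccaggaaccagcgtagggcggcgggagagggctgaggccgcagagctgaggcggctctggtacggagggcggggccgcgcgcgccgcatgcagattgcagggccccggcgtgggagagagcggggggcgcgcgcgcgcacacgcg
Hsph1, chr5:149636286-149636485 (- strand): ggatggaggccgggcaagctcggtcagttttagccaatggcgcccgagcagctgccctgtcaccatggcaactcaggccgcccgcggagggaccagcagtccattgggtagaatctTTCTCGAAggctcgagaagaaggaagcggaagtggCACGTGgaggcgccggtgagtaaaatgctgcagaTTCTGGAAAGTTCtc
Hsf2, chr10:57486215-57486414 (+ strand): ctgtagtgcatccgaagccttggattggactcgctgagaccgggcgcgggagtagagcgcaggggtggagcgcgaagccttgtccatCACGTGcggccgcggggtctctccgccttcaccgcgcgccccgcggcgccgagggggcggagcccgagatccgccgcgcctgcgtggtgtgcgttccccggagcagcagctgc
Dnajc16, chr4:141790615-141790814 (- strand): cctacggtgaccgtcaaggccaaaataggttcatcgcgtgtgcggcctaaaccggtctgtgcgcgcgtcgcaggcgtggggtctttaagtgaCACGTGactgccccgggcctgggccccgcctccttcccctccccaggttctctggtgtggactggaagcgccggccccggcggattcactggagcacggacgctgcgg
Dnajb9, chr12:44210039-44210238 (- strand): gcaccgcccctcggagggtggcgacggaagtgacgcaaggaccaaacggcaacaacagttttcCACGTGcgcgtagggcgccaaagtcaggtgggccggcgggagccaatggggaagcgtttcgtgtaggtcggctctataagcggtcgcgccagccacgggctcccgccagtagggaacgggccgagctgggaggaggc
Dnajc8, chr4:132535389-132535588 (+ strand): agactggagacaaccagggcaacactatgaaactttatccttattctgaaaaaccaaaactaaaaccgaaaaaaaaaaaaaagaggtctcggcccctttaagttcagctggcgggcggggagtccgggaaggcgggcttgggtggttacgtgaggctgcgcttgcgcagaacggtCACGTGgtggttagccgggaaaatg
Hspa1a, chr17:34972127-34972326 (- strand): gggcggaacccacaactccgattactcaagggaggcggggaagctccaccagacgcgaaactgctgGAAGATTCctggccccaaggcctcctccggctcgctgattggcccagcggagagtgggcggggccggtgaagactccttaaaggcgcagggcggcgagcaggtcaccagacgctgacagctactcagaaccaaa

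Counted from the start as base 1, the E-boxes began at −107 in Dnajb9, −83 in Hsf2, −78 in Dnajc16, −19 in Hsph1 and 6 in Dnajc8, and all 5 lay inside a region. In Hspd1 the heat shock element letters form 1 run that begins at −144 and lies in its region, where the window held no E-box. The Hsph1 window alone held both motifs among the 7 printed, with the triple beginning at 16. The Hspa1b window differed from that of Hspa1a at only a few of its 300 bases (296 were identical). Windows of Hsf1, Hsp90aa1, Hsp90ab1, Hspa8, Hspa9 and Dnajc11 were not used here.

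**Figure D1:**
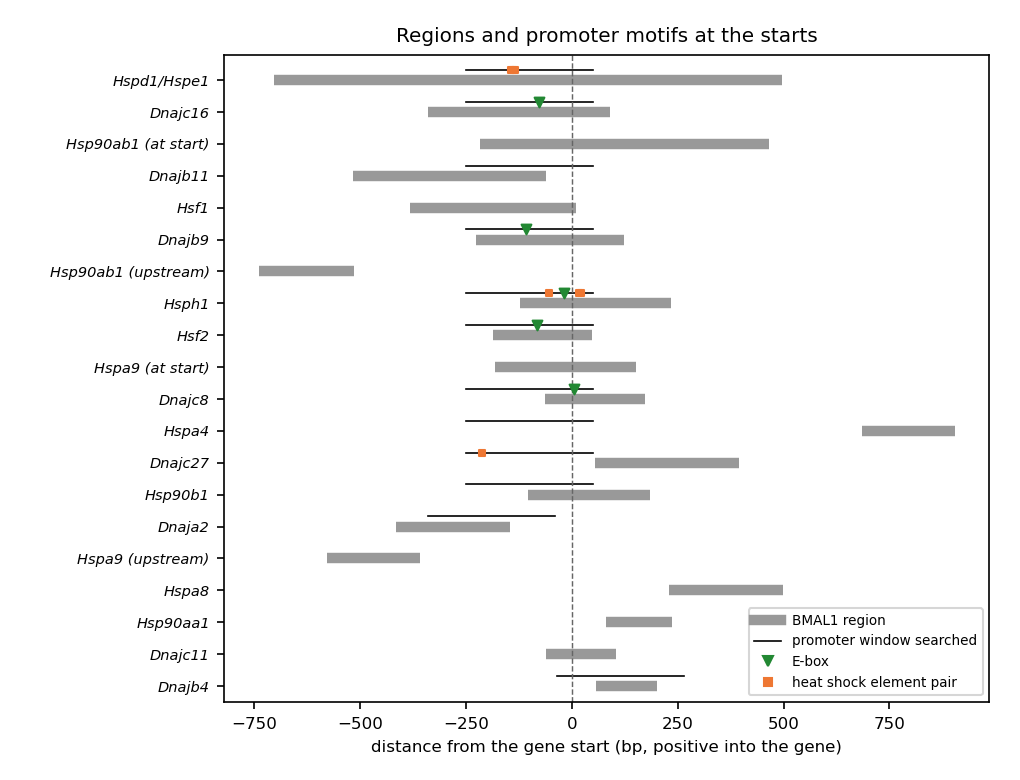
The 20 regions (grey bars) are drawn by distance in bp from the start of their gene, ordered from the strongest (top) to the weakest (bottom) by EtOH signal, with the searched promoter window (black line) where one was matched, E-boxes (green triangles) and heat shock element pairs (orange squares) placed by their first base. Of the 20 regions, 11 contain a start, and the 5 E-boxes sit over grey bars.

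After 4-OHT, BMAL1 signal was lower at 19 of the 20 regions and at none was it called higher, with log2 changes from −0.75 to −2.69 and a median of −1.70 (3.24-fold lower). Of all 4740 regions, 93.8% were called lower and 0% higher, and their median was −1.66 (3.17-fold), so the share and the size at these genes stood near the background. The regions were called in EtOH-treated cells, a choice that favours falls, and sites gained with 4-OHT could not be among them. The test was edgeR's quasi-likelihood fit on reads scaled to library totals, and a call is an adjusted p below 0.05 by Benjamini and Hochberg over all regions. Both 4-OHT libraries were below both EtOH libraries at all 20 regions, as at 98.0% of all regions. The levels below are reads per 10000000 library reads (RP10M), in the order EtOH replicates 1 and 2, then 4-OHT replicates 1 and 2. Input at these regions averaged 1.25 to 9.91 RP10M over the 4 input libraries. Between the treatments the inputs gave 0 calls at the 20 regions, and 0 at an unadjusted p under 0.05 (over all 4740 regions, 0 calls and 212 at that p).

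The heat shock factor genes each carried 1 region over the start. At Hsf1, the master regulator of the heat shock response (chr15:76477064-76477454), signal was 59.2 and 60.1 RP10M with EtOH and 8.73 and 19.3 with 4-OHT, 4.01-fold lower (log2 change −2.00, SE 0.28, edgeR adjusted p = 1.99e-12). At Hsf2, which encodes a factor that forms trimers with HSF1 (chr10:57486200-57486434), it was 30.4, 31.8, 8.01 and 6.76 RP10M, 4.24-fold lower. The 2 EtOH libraries agreed closely at both genes, while the 4-OHT libraries at Hsf1 differed by more than the EtOH ones. Each region also lay within 1 kb of the start of a neighbour, Bop1 at Hsf1 and 4930467K11Rik at Hsf2.

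The chaperonin pair Hspd1 and Hspe1 encode the mitochondrial HSP60 and HSP10 that close into a folding chamber. They shared the longest region of the group (chr1:55087436-55088634, over both starts), which also had the most EtOH signal in RP10M. Its signal was 215 and 189 RP10M with EtOH and 37.1 and 57.9 with 4-OHT, 4.1-fold lower (log2 change −2.04, SE 0.15, edgeR adjusted p = 3.95e-38). The input libraries held 13.1, 6.37, 8.81 and 11.4 RP10M there. Signal above input, the ChIP mean less the input mean of the same treatment, stood after 4-OHT at 19.5% of its EtOH value. RP10M is not corrected for region length, which was 1199 bp here and 431 bp at Dnajc16. EtOH signal was 23-fold above input here and 43.3-fold at Dnajc16.

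All 3 HSP90 genes had a region. Hsp90ab1, the constitutive cytosolic HSP90, had one over its start (chr17:45572795-45573478) at 81.5, 97, 40.8 and 24.1 RP10M, 2.86-fold lower, and one 514 bp upstream (chr17:45573775-45573999) at 37.8, 36.9, 18.9 and 14.5 RP10M, 2.27-fold lower. At Hsp90b1, which encodes GRP94 of the endoplasmic reticulum (chr10:86705259-86705547, also near the start of BC030307), the values were 26.7, 24.4, 7.28 and 8.69 RP10M, 3.12-fold lower. The inducible Hsp90aa1 had a weak region 82 bp inside the gene (chr12:110696158-110696313) at 12.6, 18.1, 9.46 and 5.79 RP10M, 2.12-fold lower with an edgeR adjusted p of 0.0089. That region held 12 to 32 reads per ChIP library, and its 4-OHT signal above input was 45.5% of the EtOH value. Its call ended without EtOH replicate 2 (adjusted p = 0.219), without 4-OHT replicate 2 (0.135), with DESeq2 (0.143) and after subtraction of the input change (0.406).

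Among the HSP70 and HSP110 genes, those with a region were Hspa8, Hspa9, Hspa4 and Hsph1. Hspa9, which encodes the mitochondrial HSP70 mortalin, had a region over its start (chr18:34954199-34954533) at 25.2, 35.2, 10.2 and 11.1 RP10M, 2.84-fold lower, and one 358 bp upstream (chr18:34954709-34954929) at 20.7, 15.9, 8.01 and 3.86 RP10M, 3.22-fold lower. Hspa8, the constitutive cytosolic HSC70, had a region 230 bp inside the gene (chr9:40801503-40801771) at 20, 13, 7.28 and 4.35 RP10M, 2.89-fold lower, and the input-subtracted change there did not pass the threshold (adjusted p = 0.29). Hspa4 and Hsph1 are HSP110 genes, which encode nucleotide exchange factors of HSP70, and both regions were lower. At Hsph1 (chr5:149636081-149636437) the values were 31.8, 39.7, 8.73 and 11.6 RP10M, 3.45-fold lower, and at Hspa4, 686 bp inside the gene (chr11:53299575-53299793), 32.6, 21.5, 4.37 and 3.86 RP10M, 6.44-fold lower. The Hspa4 fall had the largest log2 size of the 20 (−2.69, SE 0.41), with 44 and 38 reads in EtOH cells against 6 and 8 in 4-OHT cells. No region lay within 1 kb of Hspa5, Hspa1a, Hspa1b, Hspa1l, Hspa2, Hspa4l, Hspa12b, Hspa13 or Hspa14.

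The DNAJ genes with the most signal encode proteins of the endoplasmic reticulum. Dnajc16 (chr4:141790554-141790984, over the start) had 158 and 136 RP10M with EtOH and 23.3 and 39.1 with 4-OHT, 4.52-fold lower (SE 0.18 on the log2 scale), and its EtOH signal was 43.3-fold above input. Dnajb11, which encodes the BiP cochaperone ERdj3, had a region 60 bp upstream (chr16:22857328-22857785, also near the start of Tbccd1) at 88.1, 81.1, 13.1 and 17.4 RP10M, 5.39-fold lower. Dnajb9, which encodes ERdj4, had one over the start (chr12:44209944-44210295) at 44.4, 60.1, 8.01 and 9.17 RP10M, 6.03-fold lower. At each of these 3 genes the higher 4-OHT value was well below the lower EtOH value. Dnajc8, whose protein associates with the spliceosome (chr4:132535495-132535732), had 32.6, 26.1, 10.2 and 6.76 RP10M, 3.53-fold lower. Dnajc27, which encodes a RAB-like GTPase with a J domain (chr12:4082629-4082968, 55 bp inside the gene), had 25.9, 27.8, 10.2 and 6.76 RP10M, 3.27-fold lower.

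The remaining 3 DNAJ regions were weak. At Dnaja2, a cytosolic cochaperone of HSC70 (chr8:85555416-85555686, 145 bp upstream), the values were 27.4, 19.8, 13.1 and 9.17 RP10M, 2.14-fold lower with an edgeR adjusted p of 0.00159. That call ended without EtOH replicate 1 (adjusted p = 0.0765), without 4-OHT replicate 2 (0.056), with DESeq2 (0.0641) and after input subtraction (0.414). At Dnajb4, a cytosolic relative of Dnajb1 (chr3:152210097-152210241, also near the start of Fubp1) they were 13.3, 13, 3.64 and 7.24 RP10M, 2.27-fold lower with an adjusted p of 0.0083. Leaving out EtOH replicate 1 ended this call (0.0518), as did leaving out EtOH replicate 2 (0.0556), leaving out 4-OHT replicate 1 (0.0653), DESeq2 (0.117) and input subtraction (0.0669). Dnajc11, a mitochondrial membrane protein gene (chr4:151933659-151933825), was the region not called, at 17, 13.6, 9.46 and 8.69 RP10M with a log2 change of −0.75 (SE 0.39, edgeR adjusted p = 0.0599). These regions held 5 to 37 reads per ChIP library, which limits what can be detected there.

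**Figure D2:**
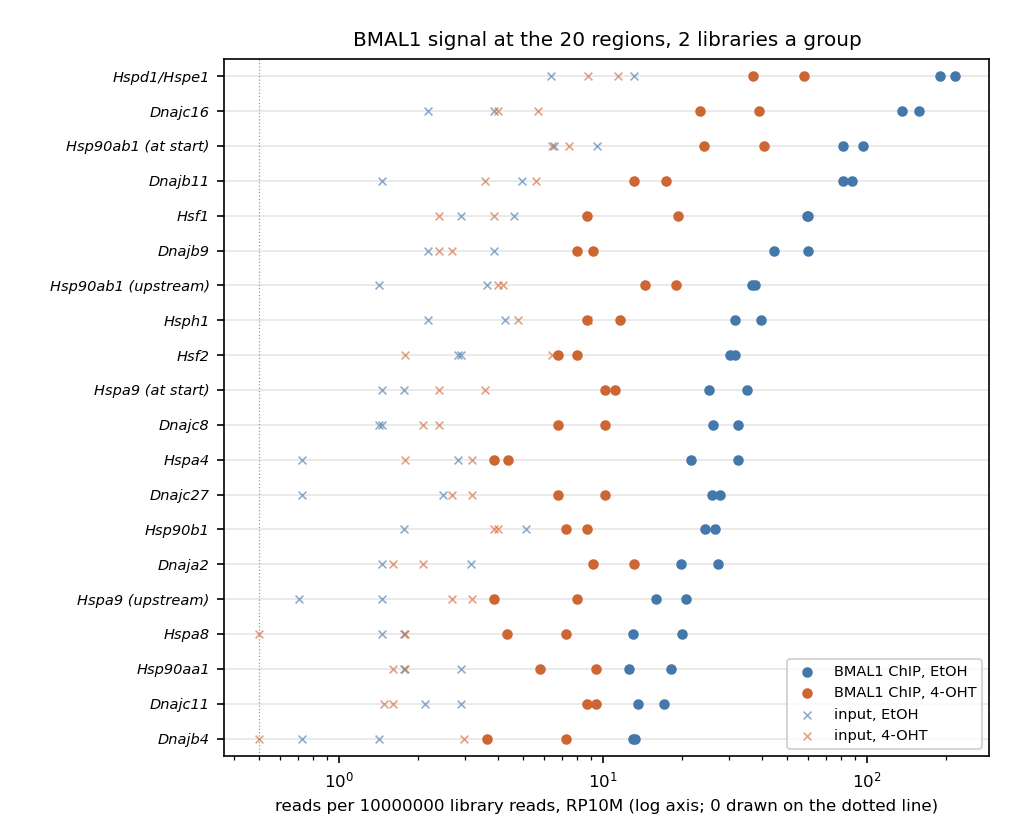
BMAL1 ChIP (filled circles) and input (crosses) signal in each of the 8 libraries is plotted on a log axis in RP10M for the 20 regions, blue for EtOH and orange for 4-OHT. At every region both orange circles lie left of both blue circles, from Hspd1/Hspe1 at 215 and 189 against 37.1 and 57.9 down to Dnajb4 at 13.3 and 13 against 3.64 and 7.24.

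BMAL1 signal did not go down to the input at most of these regions. With 4-OHT, 17 of 20 were above input in the edgeR fit over the 8 libraries (80.6% of all regions). With EtOH all 20 were (99.5% of all regions), which the calling of regions in EtOH-treated cells had already set. The 3 not called above input after 4-OHT were Hspa4 (adjusted p = 0.179), the upstream region of Hspa9 (0.1) and Hsph1 (0.0677). At Hsph1 the 4-OHT inputs held 8.81 and 4.78 RP10M against 2.18 and 4.25 with EtOH. Signal above input after 4-OHT was 6.39% of the EtOH value at Hspa4, 58.8% at Dnajc11 and 20.7% at the median region. When the change of the input was subtracted, 15 of 20 regions were called lower, against 50.5% of all regions. The median EtOH signal was 29.8 RP10M at the 20 regions and 23.7 RP10M at all regions, and its part in this difference was not tested.

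Further from the starts, 4 more members had a region within 5 kb, Dnajc4, Dnajb14, Dnajb5 and Hspb7. Those near Dnajc4 and Dnajb14 lay closer to the starts of Vegfb and H2afz. The region in Hspb7 (chr4:141423260-141423617), 2481 bp from its start and inside the gene, was stronger than each of the 20, at 260.0 and 236 RP10M with EtOH and 43.7 and 43 with 4-OHT. It was 5.72-fold lower (log2 change −2.52, SE 0.15, edgeR adjusted p = 1.44e-58), beside mean inputs of 4.65 and 3.14 RP10M. The Dnajb5 region, 3002 bp from its start (chr4:42949642-42950092), had 45.9, 39.1, 20.4 and 18.3 RP10M, 2.2-fold lower. Hspa8 had a further region 1105 bp upstream of its start (chr9:40800026-40800168), at 14.8, 21, 8.73 and 2.9 RP10M, 3.39-fold lower.

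Per exon length, mRNA levels of these genes ran from 0.292 RPKM for Hspb7 to 1182 RPKM for Hsp90ab1, and a few abundant chaperones made up most of the sum. Here and below, levels are RPKM in the order EtOH replicates 1 and 2, then 4-OHT replicates 1 and 2, and in bulk RNA fewer cells of a kind and less RNA per cell cannot be told apart. The 3 HSP90 genes took 40.4% to 41.6% of the summed RPKM of the 65 members in the 4 libraries, the 13 HSP70 and HSP110 genes 26.8% to 27.3%, and the 24 DNAJC genes 11.6% to 11.9%. Stip1 and Bag3 took 4.47% to 4.87%, the DNAJB genes 4.48% to 4.74%, Hspd1 and Hspe1 3.55% to 3.74%, the DNAJA genes 3.14% to 3.21%, the small heat shock proteins 2.51% to 2.71% and the heat shock factors 1.33% to 1.39%. The median member stood at 25.6 RPKM, against 12.5 for all genes of the count minimum.

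Among the HSP90 genes Hsp90ab1 was the most abundant member of all, at 1107, 1182, 1124 and 1079 RPKM. The endoplasmic reticulum form Hsp90b1 followed at 515, 565, 551 and 494 RPKM. The inducible Hsp90aa1 stood at 189, 197, 196 and 173 RPKM, so that Hsp90ab1 exceeded it 5.73-fold to 6.25-fold in each library. Stip1, the HSP70 to HSP90 adaptor, was at 182, 209.8, 192 and 194 RPKM and overlapped Hsp90aa1 and Hspa9 (181, 195, 188 and 174 RPKM) in range.

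The HSP70 genes Hspa8 and Hspa5 were far above the stress-inducible Hspa1a and Hspa1b. Of the others, Hspa9 (mean of the 4 libraries 184 RPKM) was also above these, while Hspa13 (26.4) and Hspa2 (10.9) were below Hspa1b (32). Hspa8 was at 344, 393, 370.0 and 363 RPKM and Hspa5, which encodes BiP of the endoplasmic reticulum, at 335, 324, 337 and 316 RPKM. The stress-inducible Hspa1b was at 30.8, 29.9, 32.4 and 34.8 RPKM, 10.4-fold to 13.1-fold under Hspa8 in each library, and Hspa1a at 16.4, 19.3, 19.1 and 21.8 RPKM. Hspa1a and Hspa1b are near-identical copies, so how their reads were divided is uncertain. The HSP110 genes Hspa4 and Hsph1 were at 70.2, 74.4, 71.8 and 64.7 RPKM and at 63, 68.2, 65.1 and 59.4 RPKM. The lowest of the family were Hspa1l and Hspa12b, at 1.8 to 2.48 and 1.9 to 2.11 RPKM.

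Hspd1 was at 92.6, 98.9, 95.7 and 88.4 RPKM and its partner Hspe1 at 71.7, 66.7, 67.1 and 66.1 RPKM. Of the small heat shock proteins, Hspb8, which works with BAG3 in removing misfolded proteins, led at 50.3, 49.1, 48.1 and 49.4 RPKM, while Hspb1 (HSP25 of the mouse) was at 10.1, 9.06, 9.69 and 9.8 RPKM. Hspb6 had 26.6, 30, 26 and 27 RPKM, Hspb11 29.2 to 31.5 RPKM, and Hspb2 0.564 to 0.934 RPKM. Bag3 was at 14.7, 16, 15.1 and 16.6 RPKM. The factors stood close to each other, Hsf1 at 35.1, 35.3, 34.2 and 37.1 RPKM and Hsf2 at 25.9, 27, 26.5 and 23.2 RPKM.

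Of the DNAJ genes, Dnaja2 was highest at 82.3, 86.6, 85.3 and 79.2 RPKM, with Dnajc8 at 71.4, 82.5, 78.7 and 75.1 RPKM overlapping it. Dnajb1, the stress-inducible HSP40, was at 49.8, 47.6, 49.5 and 51.5 RPKM, and Dnaja1 at 29.2, 31.4, 31.8 and 28 RPKM. The endoplasmic reticulum DNAJ genes ranged from Dnajc10 (59 to 64.2 RPKM) and Dnajb11 (38.5, 40.9, 39.7 and 38.7 RPKM) to Dnajb9 (11, 11.9, 11 and 10.6 RPKM) and Dnajc16 (8.96, 8.89, 9.06 and 9.29 RPKM). Dnajc16 thus had an mRNA level below the median member, while only the region of Hspd1 and Hspe1 had more EtOH signal in RP10M within 1 kb of a start. Dnajb4 was at 24.3, 26.5, 24.6 and 22.2 RPKM, Dnajc11 at 25.2, 24.7, 24.2 and 24.7 RPKM and Dnajc27 at 3.36, 3.47, 3.52 and 3.59 RPKM. The lowest DNAJ gene was Dnaja4, at 0.594, 0.662, 0.783 and 0.688 RPKM.

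**Figure D3:**
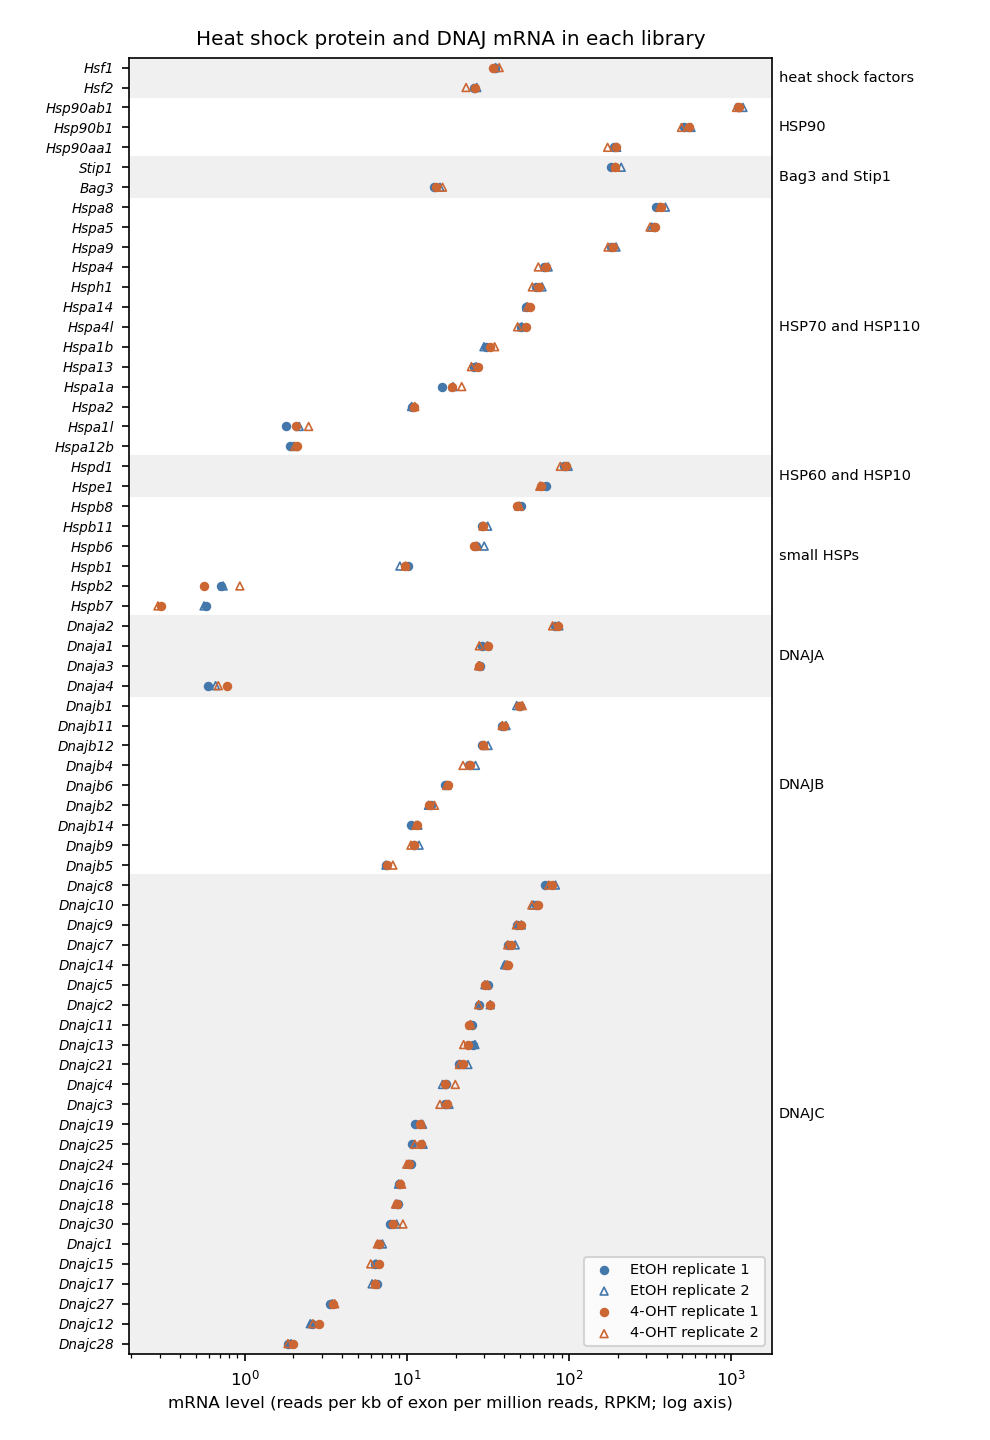
The mRNA level of each of the 65 genes is plotted on a log axis in RPKM, with 1 symbol per library, blue for EtOH and orange for 4-OHT, grouped by family and ordered by mean level within it. Symbols of the 4 libraries overlap for most genes, from Hsp90ab1 at 1079 to 1182 down to Hspb7, where 0.574 and 0.562 stand apart from 0.306 and 0.292.

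After 4-OHT, mRNA of 1 of the 65 members was lower, Hspb7, and none was called higher. All 65 were tested, and over the 13216 genes tested 1.63% were called lower and 0.802% higher (2.44% in either direction, by the same edgeR test with adjustment over all genes). At an unadjusted p under 0.05 there were 4 members, Hspa1a and Hspa1b with higher and Hspb7 and Dnajc13 with lower values. The share of all tested genes at that p was not counted, so nothing is read from this number. DESeq2 called none in either direction. The median log2 change was −0.01 over the members and 0.00 over all tested genes. Of the 65 changes, 55 were within 0.1 and 64 within 0.25 of 0 on the log2 scale, a band chosen after the values were seen, and the 95% interval lay within that wider band for 51 members.

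Hspb7 encodes a small heat shock protein known from heart and skeletal muscle, and its mRNA was scarce here. Its level was 0.574 and 0.562 RPKM (1.59 and 1.56 CPM) with EtOH and 0.306 and 0.292 RPKM (0.847 and 0.807 CPM) with 4-OHT. The groups did not overlap, and the log2 change was −0.93 (SE 0.20, 95% interval −1.32 to −0.54, edgeR adjusted p = 0.00191). The call was kept without each library in turn (adjusted p from 0.00767 to 0.046) but ended with DESeq2 (log2 change −0.93, adjusted p = 0.139). The authors' deposited table gives Hspb7 an adjusted p of 0.116 and a log2 change of −0.17, on a scale that may differ from that of these fits. It was the member with the strongest BMAL1 region within 5 kb (chr4:141423260-141423617, described above). Of the muscle markers, Acta1 was at 23.913, 29.867, 25.688 and 28.296 CPM, with overlapping groups, and Myod1 was at 0.

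After Dnaja4, the largest positive changes were those of Hspa1a, Hspa1l and Hspa1b, neighbouring HSP70 genes of which the first and last are stress-inducible, and none passed the threshold. The log2 change was 0.20 for Hspa1a (SE 0.08, edgeR adjusted p = 0.27), 0.15 for Hspa1b (SE 0.07, adjusted p = 0.41) and 0.20 for Hspa1l (SE 0.12, adjusted p = 0.628). Hspa1b stood higher in both 4-OHT libraries than in both EtOH libraries, and the groups of Hspa1a overlapped. Hspa1l runs head to head with Hspa1a from a start 547 bp away. Hspa1a was called higher without 4-OHT replicate 1 (log2 change 0.28, adjusted p = 0.0251). The 5 largest positive changes were completed by Dnaja4 (0.23, SE 0.16) and Dnajc4 (0.13, SE 0.09; 17.5, 16.6, 17.2 and 19.9 RPKM).

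Beside Hspb7, the largest negative changes were those of Dnajc13, Dnajb4, Hspb6 and Hsf2. Dnajc13, which encodes the endosomal protein RME-8, was at 25.5, 26.3, 23.9 and 22.4 RPKM, without overlap, with a log2 change of −0.16 (SE 0.06, edgeR adjusted p = 0.311). The change was −0.12 for Dnajb4 (SE 0.07), −0.09 for Hspb6 (SE 0.08) and −0.09 for Hsf2 (SE 0.07), with overlapping groups in each. In all, 5 members had both 4-OHT libraries below both EtOH libraries and 10 had both above, against 18.3% and 18.7% of all tested genes, and the other 50 overlapped.

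Genes of the other families were close to 0. The 3 HSP90 genes lay between −0.07 and −0.05, Hspd1 and Hspe1 at −0.06 each, and the 24 DNAJC genes between −0.16 and 0.13 with a median of 0.00. The 9 DNAJB genes lay between −0.12 and 0.08, Bag3 at 0.05, Stip1 at −0.02 and Hsf1 at 0.02. Hspa5 and Hspa8 were both at −0.01 (SE 0.06) and Dnajb1 at 0.05 (SE 0.06), and Hspb1 and Hspb8 were at 0.02 and −0.03. A p that misses the threshold does not show that levels were equal. For the abundant genes the interval bounds the change more closely than for Hspb2, whose SE was 0.27.

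**Figure D4:**
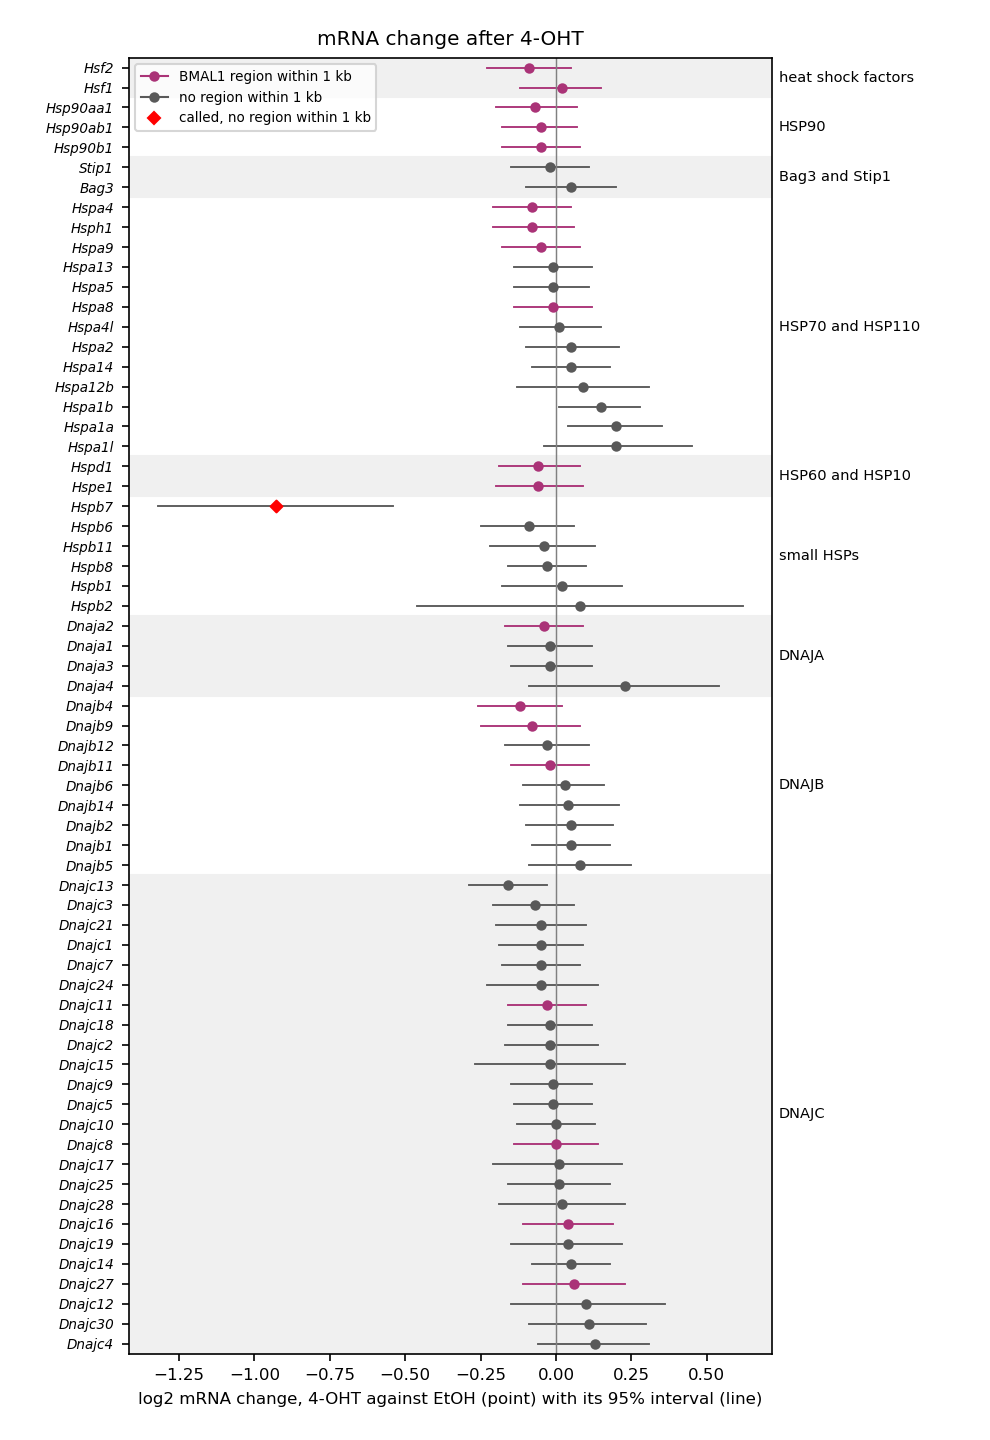
The log2 mRNA change of 4-OHT against EtOH is plotted for each of the 65 genes with its 95% interval, grouped by family, in purple for genes with a BMAL1 region within 1 kb of the start and in grey for the others. Hspb7 (red diamond) at −0.93 is the gene called, and the other 64 points lie between −0.16 and 0.23.

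Members were not spread evenly over the libraries. Of the 65, 28 had their highest CPM in EtOH replicate 2 (43.1%, against 28.8% of all tested genes) and 28 their lowest in 4-OHT replicate 2 (43.1% against 29.9%). A further 21 had their lowest in EtOH replicate 1 (32.3% against 21.2%). Replicates of 1 treatment thus stood at opposite ends for many of these genes. EtOH replicate 2 was the library with the fewest counted reads and 4-OHT replicate 2 the one with the most, and the part of depth in this pattern was not tested. The median change over members was between −0.034 and 0.023 on the log2 scale when each library was left out in turn.

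Set side by side, occupancy and mRNA changes of the 19 members with a region differed in size. Their regions changed by −0.75 to −2.69 on the log2 scale and their mRNA by −0.12 to 0.06, and the 95% interval of the mRNA change lay within 0.25 of 0 for 17 of the 19. At the starts with the most EtOH signal in RP10M, those of Hspd1 and Hspe1, occupancy changed by −2.04 and mRNA by −0.06 each. At Dnajc16 they changed by −2.18 and 0.04. At the largest fall, Hspa4, mRNA changed by −0.08 (SE 0.07), and at Dnajb9, where occupancy changed by −2.59, by −0.08 (SE 0.08). Dnajc11, the region not called, had an mRNA change of −0.03.

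The mRNA changes were negative, though not called, for 16 of the 19 members with a region (median −0.05) and for 22 of the other 46 (median 0.01). Over all 2837 tested genes with a region 52.0% were negative. Leaving out EtOH replicate 2 took the count among the 19 to 10, leaving out 4-OHT replicate 2 took it to 9, and leaving out either of the other libraries left it at 16. EtOH replicate 2 and 4-OHT replicate 2, without which the count was smaller, are those in which many members were highest or lowest. The part of that pattern in the count was not tested. In the authors' deposited table, which lists 3317 genes, the 23 members with a region within 5 kb are the members given, with log2 changes of −0.17 to 0.08. None of the 23 has an adjusted p below 0.05 there, and 82 genes of that table do.

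**Figure D5:**
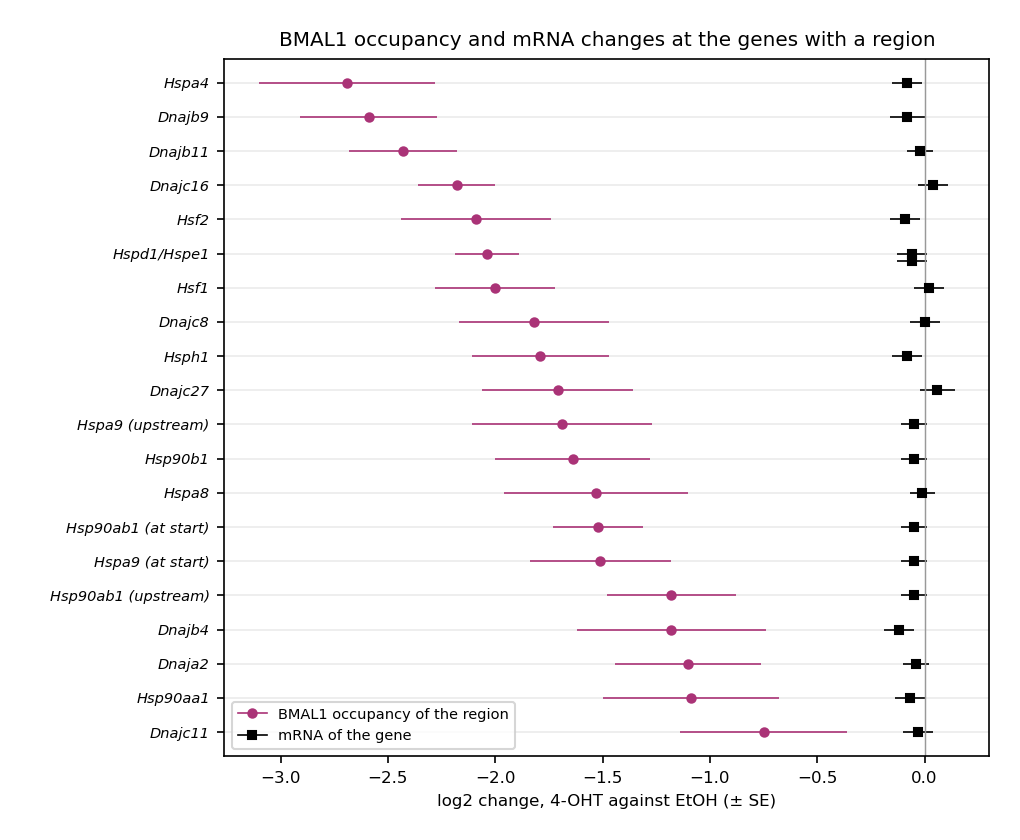
For each of the 20 regions the log2 change of BMAL1 occupancy (purple circles) and that of the mRNA of its gene (black squares) are plotted on 1 axis, 4-OHT against EtOH, with bars of 1 SE. Purple circles run from −2.69 at Hspa4 to −0.75 at Dnajc11, while black squares stay between −0.12 and 0.06.

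Other genes of the folding machinery were read from 5 lists of 75 genes, of which 74 were tested. None rose and none fell in the edgeR test or with DESeq2, where edgeR called 2.44% of all tested genes in either direction. At an unadjusted p under 0.05 there was 1 gene, Fkbp5, and the share of all genes at that p was not counted. The median change over the lists was 0.02. Fkbp5, which encodes an HSP90 cochaperone, had the largest positive change, 0.15 (SE 0.07, 52.6, 49.4, 57.5 and 55.5 CPM, adjusted p = 0.463). Chordc1, another HSP90 cochaperone gene, had the largest negative one, −0.15 (SE 0.08, 48.1, 54.4, 49.5 and 43 CPM). The medians were −0.01 for 13 genes of the chaperonin TRiC and of prefoldin, 0.01 for 21 HSP90 cochaperones and 0.03 for 10 HSP70 nucleotide exchange factors. They were 0.02 for 15 folding factors of the endoplasmic reticulum and 0.05 for 15 other HSF1 targets and proteostasis genes. Serpinh1, the collagen chaperone HSP47, was at 1092, 1083, 1087 and 1186 CPM with a change of 0.06 (SE 0.06). A BMAL1 region lay within 1 kb of the start of 26 of the 74, and 22.5% of all genes of the count minimum had one. By list, the 26 included 9 of the 15 endoplasmic reticulum factors, such as Calr, Canx, Xbp1 and Ddit3. They also included 8 of the 15 other HSF1 targets and proteostasis genes and 3 of the 10 nucleotide exchange factors. The rest were 4 of the 21 HSP90 cochaperones and 2 of the 13 TRiC and prefoldin genes.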

How the data were processed

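Gene expression was measured by mRNA-seq (TruSeq stranded kit, per the labels) and BMAL1 binding by ChIP-seq with inputs (ThruPLEX kit, Bethyl antibody, per the labels). Per the file headers, the authors made counts per gene with featureCounts 1.5.0-p1 over exons joined by gene, reverse-stranded, on a UCSC mm10 annotation. The header names no option for reads that map to several places, so near-identical genes are uncertain. For 8 ChIP and input libraries the authors deposited counts of reads in the same 4740 regions, named as peaks of the control; no source used here says whether replicates were pooled for calling. The deposited region files give the caller's fold enrichment, a ratio to background used here as an alternative filter, and −log10 p and q values and a score, which were not used. A deposited signal table, named as RPKM, equals 5 plus RP10M (largest difference 5.5e-12) and gave the library totals. The authors' comparison table, which the submitters' processing notes tie to DESeq2, holds log2 fold changes, p-values and a score. Its baseMean, a mean signal over the libraries, was not used. Those notes also name bedtools 2.25.0, and no source used here gives the aligner.

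For the 4 mRNA libraries, edgeR 4.0.16 (R 4.3.3) fitted a robust quasi-likelihood model to the gene counts with TMM factors and its default expression filter. The same model was fitted to region counts of the 4 ChIP libraries, or on all 8 for comparisons with input, with library totals and no further scaling. TMM factors were 0.9922 to 1.009. The SE is that of the log2 change, and intervals are 95%. The design had taken the signal table for RPKM; RP10M was used in its place and is not corrected for region length. CPM divides counts by library total times TMM factor, except marker and knocked out genes, which use the total alone; RPKM divides further by exon length. A gene start is the upstream end of its outermost exon. Alternatives were DESeq2 1.42.0, RLE factors, TMM factors on the regions, other filters and windows, subtraction of the input change, a replicate block, and leaving out each library. The scripts were tested on simulated data. The members, partner lists and markers were chosen with earlier results of these data known. Named in any case were members called, members with a region, the heat shock factors, Bag3, Stip1, the HSP90 genes, the main HSP70, chaperonin, small heat shock protein and DNAJ genes and Serpinh1, and the 5 largest changes in each direction.

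Same-numbered mRNA libraries deviated with r = −0.168 over all tested genes, and ChIP libraries with r = 0.0218, so the numbers were not taken to pair the samples.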

Additional observations from a re-analysis of the deposited data

How the results depend on the processing

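In the mRNA, the count of members that rose was 0 and of those that fell 1 (Hspb7) with RLE factors, without the expression filter and with the replicate block (median change −0.011); DESeq2 gave 0 that fell. When each library was left out the count that rose was 0 to 1 and the median change −0.034 to 0.023. With the pairs crossed, added after seeing the data because same-numbered libraries deviated in opposite directions, 2 members rose (Hspa1a and Hspa1b) and 2 fell, and in the partner lists 1 rose and 1 fell. Over all genes, 106 rises and 216 falls became 518 and 611 with crossed pairs, 60 and 152 with the replicate block, 62 and 183 with DESeq2, and 40 to 196 rises without 1 library. Over 65 members and 9 alternatives, 53 of 585 values, from 34 members, turned sign with no call either way. At the regions, 19 lower calls became 15 to 18 with DESeq2, input subtraction or 1 library left out and stayed at 19 with the replicate block (median −1.69) and with at least 20 reads. The median of −1.70 was −2.23 after input subtraction and −1.84 to −1.68 without each library. Over all regions, 4445 lower calls became 2395 after input subtraction. By construction, TMM factors on the regions remove any change that most regions share: the median became −0.02, 1 member region was lower, and 2 and 0 regions were above input with EtOH and 4-OHT. Relative to that shift, changes turned to 0.04 at Hsp90b1, 0.58 at Hsp90aa1, 0.17 and 0.51 at Hsp90ab1, 0.17 at Hspa9, 0.50 at Dnajb4, 0.59 at Dnaja2, 0.15 at Hspa8 and, at the region not called before, 0.94 at Dnajc11, and all regions gave 66 higher and 228 lower calls. Members with a region numbered 18 within 500 bp, 23 within 5 kb, 13 with at least the median caller fold, and 14 of 52 with RefSeq starts. Regions above input after 4-OHT numbered 15 to 17 without each library. Depth limits the weak regions, where ChIP libraries held as few as 5 reads.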
